A study of Homo sapiens with 12 samples.

Results

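The 8 genes described here encode proteins of regulated secretion, catecholamine synthesis and neuropeptide signalling in sympathetic-type cells: SCG2, VGF, SYT4, SYN1, CYB561, NPTX2, GCH1 and NPY2R. They were taken by symbol from the probe annotation, and all 8 were found among the 14884 genes tested, each with 1 transcript cluster, the array's probe set for 1 transcribed locus. They were measured in SK-N-BE(2) cells, a MYCN-amplified neuroblastoma line, on Affymetrix Human Gene 2.0 ST arrays. The groups were cells given 1 µM JQ1 together with 10 nM panobinostat, cells given 10 nM panobinostat alone, cells given 1 µM JQ1 alone, and cells given vehicle, each for 6 h and each with 3 arrays. JQ1 keeps BET proteins off acetylated histones by filling their bromodomains, and panobinostat is an inhibitor of histone deacetylases. All groups are cultures of the same line in the same serum-containing medium, so they model 1 tumour's cells without other tissue. The labels leave unsaid if replicate arrays came from separate cultures, so the p-values given here rest on array-to-array spread alone, which may be technical.

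Sympathetic neuroblasts and chromaffin cells store peptides and catecholamines in large dense-core vesicles and release them when calcium rises. Granins such as secretogranin II and VGF are packed into these vesicles and cut into peptides, synaptotagmins and synapsins act at vesicle fusion and clustering, and cytochrome b561 brings electrons into the vesicle for the hydroxylation that makes noradrenaline. GTP cyclohydrolase makes the tetrahydrobiopterin that tyrosine hydroxylase needs, and neuropeptide Y, released with catecholamines, acts on receptors that include the Y2 type.

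Values were read as log2 signals, although the labels state no log base, and a change is the log2 difference ± SE from limma (n = 3 arrays per group). Adjusted p-values are limma's, corrected by the Benjamini-Hochberg method over all 14884 genes, and calls were made where this p was under 0.05. Arrays of 1 group correlated at 0.991 to 0.995 and those of different groups at 0.962 to 0.989, with array medians of 6.12 to 6.29. The labelled cell type was checked against sympathoadrenal markers. The 10 that were analysed here, among them TH, DBH, HAND2, GATA3 and ISL1, were each brighter than at least 81.8% of genes, whereas the 4 measured Schwann cell markers stood above 23.4% to 53.8% of genes and the 3 measured immune markers above 11.6% to 67.3%. The 8 measured markers of the mesenchymal neuroblastoma state, another state of such tumour cells, were mixed. SNAI2 stood above 98.8% of genes, VIM above 91.4%, FN1 above 80.1% and TWIST1 above 79.7%. The rest were dimmer, FOSL1 above 49.6%, CD44 above 45.7%, PRRX1 above 40.4% and YAP1 above 25.5%. Both the sympathoadrenal and the mesenchymal list moved with treatment. The mean level per array of the sympathoadrenal list was 10.38 to 10.42 with both compounds, 10.61 to 10.66 with panobinostat and 11.01 to 11.03 with JQ1, against 11.10 to 11.14 with vehicle. That of the mesenchymal list was 8.10 to 8.16, 8.22 to 8.36 and 8.37 to 8.44 in the same order, against 8.46 to 8.56 with vehicle. Of its 8 genes, 4, 3 and 1 were called lower, beside 19.5%, 14.8% and 9.47% of all genes. None was called higher, beside 18.2%, 14.5% and 8.18%. Of the 10 sympathoadrenal genes, 10, 7 and 2 were called lower in the same order, beside the same shares. With JQ1, 1 was called higher, GATA3 at 0.28. The part of either list in the changes below was not tested. In bulk RNA, fewer cells of a type and less RNA per cell cannot be told apart.

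The 8 genes split evenly. NPY2R, SYT4, SCG2 and CYB561 fell and NPTX2, SYN1, VGF and GCH1 rose with JQ1, with panobinostat and with both compounds. The 3 comparisons share the vehicle arrays, so a shared direction is not independent evidence. All 8 were called in each comparison, 4 higher and 4 lower. Of all genes, 37.7% were called with both compounds (18.2% higher, 19.5% lower), 29.3% with panobinostat (14.5% higher, 14.8% lower) and 17.6% with JQ1 (8.18% higher, 9.47% lower). The 8 genes were chosen with earlier results of these data known. Their counts, here and below, are therefore no test against the shares of all genes. In none of the 3 did the arrays of the groups overlap for any of the 8, which also held for 46.1% of all genes with both compounds, 39.8% with panobinostat and 33.5% with JQ1. Across the 8, the median change was -0.02 with JQ1, -0.10 with panobinostat and 0.09 with both compounds, beside medians over all genes of 0.01, 0.03 and 0.02.

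**Figure D1:**
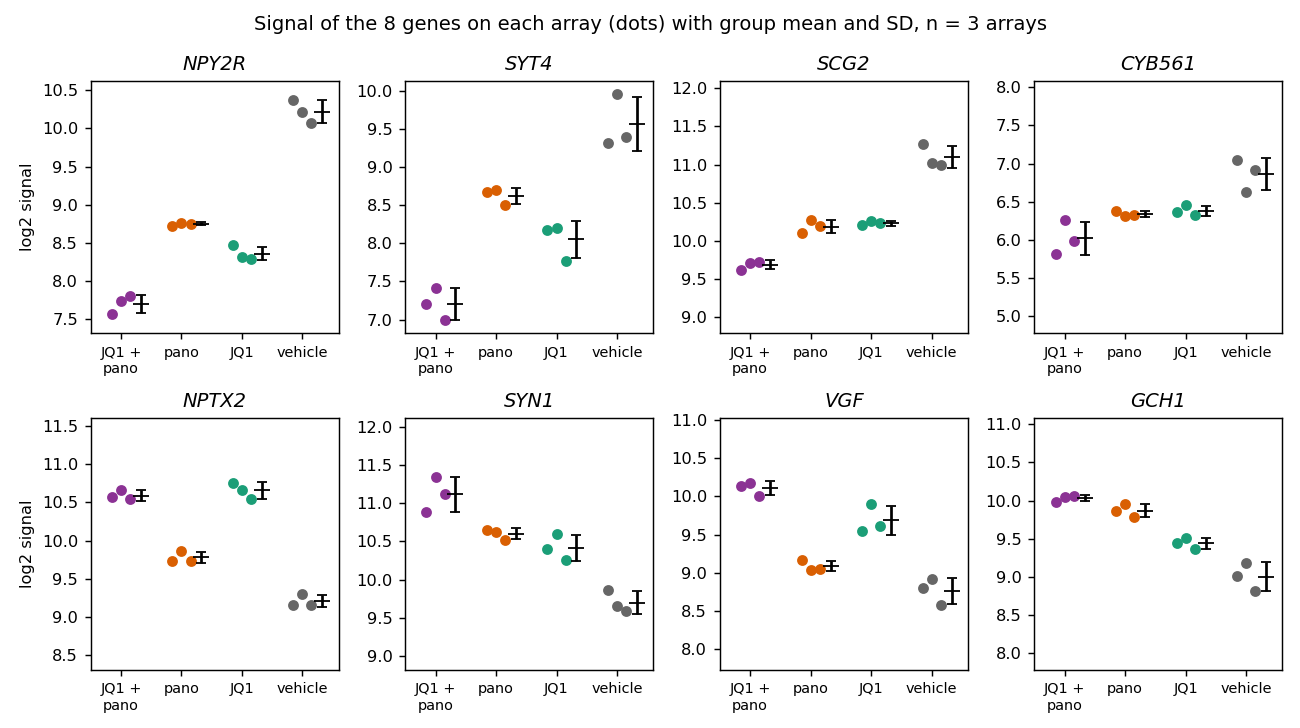
Log2 signal (vertical axis, the same span in every panel) of the 8 genes on each array, by group from left to right (JQ1 plus panobinostat, panobinostat written pano, JQ1, vehicle); dots are arrays and the bar is the group mean with its SD (n = 3). The vehicle arrays lie above all treated arrays for NPY2R, SYT4, SCG2 and CYB561 and below them for NPTX2, SYN1, VGF and GCH1.

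Promoter windows from RefSeq (GRCh38.p14, 250 bases before to 50 after the annotated start, read on the gene's strand) were available for 6 of the 8 genes. Those of 3 genes that rose and the 2 whose fall was greatest are shown, so that the letters around the starts can be compared between genes that moved in opposite directions. Capitals mark matches on either strand to the cAMP response element TGACGTCA, its shorter form TGACG, which lies inside it on both strands, and the E-box CACGTG. These motifs were chosen after the windows had been seen. The VGF and NPY2R windows lie inside the spans given for those genes below, away from the outermost start of each gene. VGF lies at chr7:101165520-101165819 (minus strand), SYN1 at chrX:47619808-47620107 (minus), NPTX2 at chr7:98617035-98617334 (plus), SYT4 at chr18:43277441-43277740 (minus) and NPY2R at chr4:155208386-155208685 (plus).
VGF: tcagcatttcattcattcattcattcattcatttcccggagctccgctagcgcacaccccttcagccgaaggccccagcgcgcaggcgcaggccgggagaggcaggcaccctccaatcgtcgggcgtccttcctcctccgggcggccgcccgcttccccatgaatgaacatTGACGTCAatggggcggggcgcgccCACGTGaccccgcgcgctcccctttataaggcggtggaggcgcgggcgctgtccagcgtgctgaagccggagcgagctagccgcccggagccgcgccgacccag
SYN1: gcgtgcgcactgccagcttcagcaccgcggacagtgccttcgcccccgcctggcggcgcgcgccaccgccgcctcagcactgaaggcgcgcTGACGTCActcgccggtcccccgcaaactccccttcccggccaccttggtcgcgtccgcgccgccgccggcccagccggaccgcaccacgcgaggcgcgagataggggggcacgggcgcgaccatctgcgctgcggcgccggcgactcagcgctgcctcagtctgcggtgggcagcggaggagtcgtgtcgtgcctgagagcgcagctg
NPTX2: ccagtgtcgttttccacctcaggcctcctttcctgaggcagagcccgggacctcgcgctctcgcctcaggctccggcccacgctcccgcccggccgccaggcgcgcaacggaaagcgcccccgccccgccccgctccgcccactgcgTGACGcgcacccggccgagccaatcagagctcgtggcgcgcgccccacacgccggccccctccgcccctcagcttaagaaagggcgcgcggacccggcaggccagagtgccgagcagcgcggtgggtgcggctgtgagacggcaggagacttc
SYT4: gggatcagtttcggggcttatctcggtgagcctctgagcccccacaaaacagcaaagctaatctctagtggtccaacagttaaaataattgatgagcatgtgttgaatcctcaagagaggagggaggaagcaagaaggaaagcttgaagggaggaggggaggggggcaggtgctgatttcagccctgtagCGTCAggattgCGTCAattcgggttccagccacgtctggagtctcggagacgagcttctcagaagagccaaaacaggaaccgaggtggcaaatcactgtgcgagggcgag
NPY2R: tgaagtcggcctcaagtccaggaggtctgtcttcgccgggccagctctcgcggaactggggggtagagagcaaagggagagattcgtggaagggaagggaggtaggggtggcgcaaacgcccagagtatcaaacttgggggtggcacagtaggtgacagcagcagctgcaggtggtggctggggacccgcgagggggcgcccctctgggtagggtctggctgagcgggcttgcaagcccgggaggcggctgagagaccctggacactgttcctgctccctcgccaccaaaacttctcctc

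TGACGTCA was found once in VGF, from base -79 to -72 relative to the start, and once in SYN1, from -159 to -152, and in 1.85% of the 35116 promoter windows of the same length. The shorter TGACG, present in 24.6% of windows, also occurred once in NPTX2 (-103 to -99, plus strand) and at 2 places in SYT4 (-60 to -56 and -49 to -45, on the opposite strand). An E-box was found in VGF (-54 to -49), as in 7.26% of windows, and 1 of the 4 CYB561 windows held 2 (-169 to -164 and -106 to -101). None of these motifs was in the NPY2R window, which lies inside the gene (155173723 to 155217076). The outer start of NPY2R was not searched. A match is a description of the sequence and says nothing of binding in these cells.

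Among the vesicle cargo genes, SCG2 and VGF went opposite ways. SCG2 (cluster 16908977, chromosome 2, 223596940 to 223602361), whose product secretogranin II is the precursor of the peptide secretoneurin, was among the brighter genes, above 93.2% of genes in mean signal. It read 9.62, 9.71 and 9.73 with both compounds, 10.10, 10.27 and 10.20 with panobinostat and 10.21, 10.26 and 10.23 with JQ1, against 11.27, 11.02 and 10.99 with vehicle. The vehicle arrays were highest, the arrays of the single compounds overlapped each other, and the combined arrays were lowest. SCG2 fell 1.82-fold with JQ1 (-0.86 ± 0.08, adjusted p = 5.4e-05), 1.87-fold with panobinostat (-0.91 ± 0.08, adjusted p = 1.42e-05) and 2.66-fold in combined treatment (-1.41 ± 0.08, adjusted p = 1.81e-07). Panobinostat and JQ1 did not differ past the threshold (-0.04, 95% interval -0.23 to 0.14, adjusted p = 0.76), a value that turned to 0.02 after quantile normalization and to 0.00 without panobinostat replicate 1. Combined treatment was below JQ1 by 0.55 ± 0.08 and below panobinostat by 0.50 ± 0.08, and both differences were called.

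VGF (cluster 17060824, chromosome 7, 101162509 to 101169952) encodes a granin-like precursor of several neuroendocrine peptides, and it is induced by growth factors in neurons. Its signals were 10.13, 10.18 and 10.01 with both compounds, 9.17, 9.04 and 9.05 with panobinostat and 9.55, 9.90 and 9.61 with JQ1, against 8.80, 8.92 and 8.58 with vehicle. No 2 groups overlapped, and the panobinostat arrays lay next to vehicle, between it and JQ1. The rise was 1.90-fold with JQ1 (0.92 ± 0.11, adjusted p = 0.000159) and 2.54-fold with both compounds (1.34 ± 0.11, adjusted p = 1.8e-06). With panobinostat the change was 0.32 ± 0.11 (adjusted p = 0.0424), and this call was lost when any of 8 of the 12 arrays was left out (0.23 to 0.40 over all 12), when only the panobinostat and vehicle arrays were fitted (0.324) and with median centring (0.271, adjusted p = 0.0901). Panobinostat was 0.60 ± 0.11 below JQ1 for this gene (adjusted p = 0.00203). Adding JQ1 to panobinostat raised VGF 2.03-fold (1.02 ± 0.11, adjusted p = 0.000176), and adding panobinostat to JQ1 gave 0.42 ± 0.11 (adjusted p = 0.0142), which was lost without combined replicate 2 (0.384), JQ1 replicate 1 (0.353) or JQ1 replicate 3 (0.380).

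SYT4 and SYN1, which act on the vesicle itself, also diverged. SYT4 (cluster 16854828, chromosome 18, 43267892 to 43277490) encodes synaptotagmin 4, a vesicle protein that lacks the calcium binding of its relatives and tunes dense-core vesicle release. Its arrays read 7.20, 7.41 and 6.99 with both compounds, 8.67, 8.70 and 8.50 with panobinostat and 8.17, 8.20 and 7.77 with JQ1, against 9.32, 9.96 and 9.39 with vehicle. The 4 groups were separate, with a vehicle spread (SD 0.35, n = 3) wider than that of any other of the 8 genes in any group. SYT4 was 2.85-fold lower with JQ1 (-1.51 ± 0.17, adjusted p = 0.000143), 1.91-fold lower with panobinostat (-0.93 ± 0.17, adjusted p = 0.00166) and 5.13-fold lower with both (-2.36 ± 0.17, adjusted p = 9.12e-07). Added to JQ1, panobinostat lowered it by a further 0.85 ± 0.17 (adjusted p = 0.00368). The panobinostat arrays were above the JQ1 arrays by 0.58 ± 0.17 (adjusted p = 0.0322), a call that ended without panobinostat replicate 1 (0.554) or 2 (0.540) or JQ1 replicate 3 (0.441).

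SYN1 (cluster 17110447, chromosome X, 47571901 to 47619857) encodes synapsin I, which tethers synaptic vesicles to actin and to each other. Its arrays gave 10.88, 11.35 and 11.12 with both compounds, 10.65, 10.62 and 10.52 with panobinostat and 10.40, 10.60 and 10.26 with JQ1, against 9.87, 9.66 and 9.59 with vehicle. The single-compound groups overlapped, and both lay between vehicle and the combination. SYN1 rose 1.64-fold with JQ1 (0.72 ± 0.13, adjusted p = 0.00212), 1.86-fold with panobinostat (0.89 ± 0.13, adjusted p = 0.000256) and 2.66-fold with both (1.41 ± 0.13, adjusted p = 3.54e-06). The panobinostat minus JQ1 difference was 0.17 (95% interval -0.10 to 0.45, adjusted p = 0.366). Combined treatment exceeded JQ1 by 0.69 ± 0.13 and panobinostat by 0.52 ± 0.13. The last of these was lost without combined replicate 2 (0.403) or panobinostat replicate 3 (0.480).

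CYB561 (cluster 16847565, chromosome 17, 63432304 to 63446639), the vesicle's electron carrier, was the dimmest of the 8 genes, with a mean signal above only 32.8% of genes. Its signals were 5.82, 6.26 and 5.98 with both compounds, 6.38, 6.31 and 6.33 with panobinostat and 6.37, 6.46 and 6.32 with JQ1, against 7.04, 6.63 and 6.92 with vehicle. The treated arrays were all below vehicle, and the 2 single-compound groups overlapped. It fell by 0.48 ± 0.12 with JQ1 (adjusted p = 0.0162), by 0.52 ± 0.12 with panobinostat (adjusted p = 0.0061) and by 0.84 ± 0.12 with both (adjusted p = 0.00014). The JQ1 call was lost without JQ1 replicate 1 (-0.472) or 3 (-0.450) or vehicle replicate 1 (-0.391) or 3 (-0.451). Combined treatment was below JQ1 by 0.36 ± 0.12 (adjusted p = 0.0448), which failed in 9 of the 12 fits that left out an array (-0.48 to -0.26 over all 12), and the difference from panobinostat did not pass (-0.32, 95% interval -0.58 to -0.06, adjusted p = 0.101). Without combined replicate 2 that difference was called (-0.439, adjusted p = 0.0363).

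GCH1 (cluster 16793176, chromosome 14, 54842017 to 54902826) encodes GTP cyclohydrolase 1, the first enzyme of tetrahydrobiopterin synthesis. It read 9.98, 10.05 and 10.06 with both compounds, 9.87, 9.96 and 9.79 with panobinostat and 9.44, 9.51 and 9.37 with JQ1, against 9.01, 9.18 and 8.81 with vehicle. Here panobinostat stood above JQ1, the reverse of the order seen for VGF. GCH1 rose 1.36-fold with JQ1 (0.44 ± 0.09, adjusted p = 0.00638), 1.83-fold with panobinostat (0.87 ± 0.09, adjusted p = 3.76e-05) and 2.04-fold with both (1.03 ± 0.09, adjusted p = 3.84e-06). Panobinostat exceeded JQ1 by 0.43 ± 0.09 (adjusted p = 0.00531). The combination exceeded JQ1 by 0.59 ± 0.09 (adjusted p = 0.000657), and its difference from panobinostat did not pass the test (0.16, 95% interval -0.05 to 0.36, adjusted p = 0.314) although the arrays did not overlap.

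NPTX2 (cluster 17048742, chromosome 7, 98617285 to 98629869) encodes neuronal pentraxin 2, an activity-regulated secreted protein that gathers AMPA receptors at excitatory synapses. Its arrays gave 10.57, 10.67 and 10.54 with both compounds, 9.74, 9.86 and 9.73 with panobinostat and 10.76, 10.67 and 10.54 with JQ1, against 9.16, 9.30 and 9.16 with vehicle. The JQ1 and combined arrays overlapped, and panobinostat lay between them and vehicle. NPTX2 rose 2.73-fold with JQ1 (1.45 ± 0.08, adjusted p = 1.21e-06), 1.49-fold with panobinostat (0.57 ± 0.08, adjusted p = 0.000204) and 2.62-fold with both (1.39 ± 0.08, adjusted p = 1.3e-07). By size of rise with JQ1 it stood at position 5 of the 14884 genes. Adding panobinostat to JQ1 left a difference of -0.06 (95% interval -0.23 to 0.11, adjusted p = 0.623), whereas adding JQ1 to panobinostat raised it by 0.82 ± 0.08 (adjusted p = 8.68e-05). Panobinostat was below JQ1 by 0.88 ± 0.08 (adjusted p = 2.53e-05).

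NPY2R (cluster 16971691, chromosome 4, 155173723 to 155217076) encodes the Y2 receptor for neuropeptide Y, a G protein-coupled receptor that restrains transmitter release at sympathetic endings. Its signals were 7.57, 7.74 and 7.80 with both compounds, 8.72, 8.76 and 8.75 with panobinostat and 8.47, 8.32 and 8.29 with JQ1, against 10.37, 10.22 and 10.07 with vehicle. No groups overlapped, and the nearest treated array was more than 1 log2 unit below the lowest vehicle array. NPY2R was 3.63-fold lower with JQ1 (-1.86 ± 0.09, adjusted p = 1.04e-06), 2.78-fold lower with panobinostat (-1.48 ± 0.09, adjusted p = 9.16e-07) and 5.74-fold lower with both (-2.52 ± 0.09, adjusted p = 6.9e-09). By size of fall it stood at position 4 with JQ1, 28 with panobinostat and 6 with both compounds among all genes. JQ1 added to panobinostat lowered it by 1.04 ± 0.09 (adjusted p = 4.75e-05), panobinostat added to JQ1 by 0.66 ± 0.09 (adjusted p = 0.000264). Panobinostat was above JQ1 by 0.38 ± 0.09 (adjusted p = 0.00941), a call that ended with median centring (0.323).

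**Figure D2:**
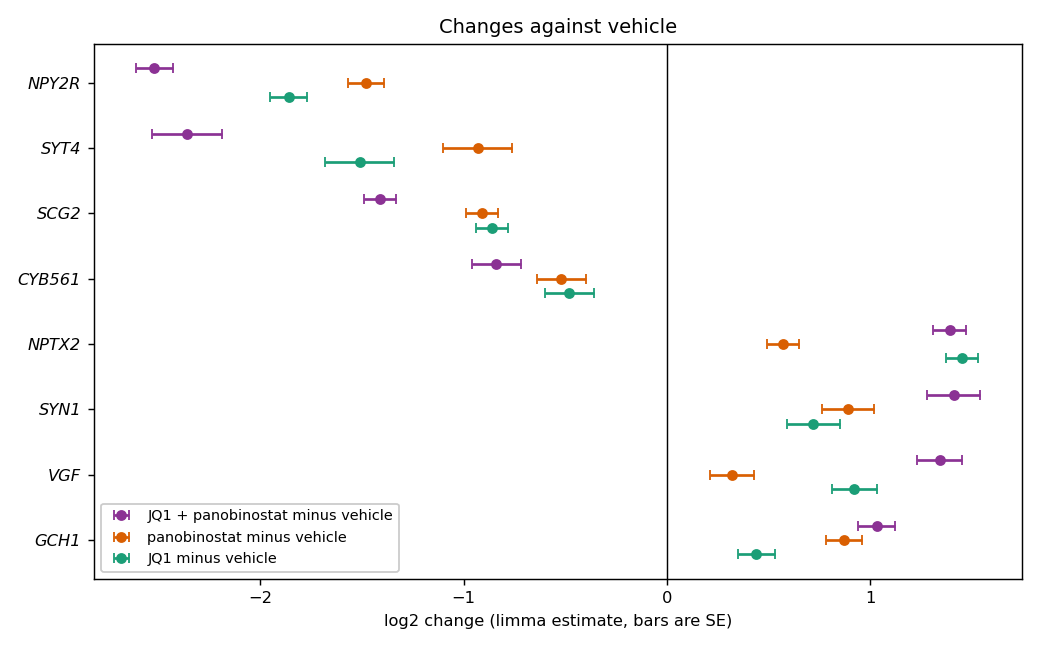
Log2 change against vehicle (horizontal axis) of the 8 genes with JQ1 plus panobinostat, panobinostat and JQ1; points are limma estimates, bars are SE, and the vertical line marks 0. Combined treatment is farthest from 0 for 7 of the 8 genes, the exception being NPTX2, at 1.39 beside 1.45 with JQ1.

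The compounds were set side by side to see which had the larger effect on each gene. Of the 8 genes, 5 differed between panobinostat and JQ1, against 23.3% of all genes. SYT4, NPY2R and GCH1 were higher with panobinostat (11.6% of all genes), and VGF and NPTX2 were lower (11.6%). The arrays did not overlap for these 5 genes, nor for 39.3% of all genes. Relative to vehicle, JQ1 thus gave the larger change of SYT4, NPY2R, VGF and NPTX2, and panobinostat that of GCH1. SCG2, SYN1 and CYB561 were not separated by this test, with intervals of -0.23 to 0.14, -0.10 to 0.45 and -0.30 to 0.22.

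Adding the partner compound moved most of the genes further. Combined treatment differed from JQ1 for 7 of the 8 genes, 3 higher and 4 lower, against 25.6% of all genes (11.7% higher, 13.9% lower). It differed from panobinostat for 6, 3 higher and 3 lower, against 14.7% of all genes (6.13% higher, 8.55% lower). Arrays did not overlap for 7 genes in the first comparison (41.7% of all genes) and for all 8 in the other (30.9%). SYT4, SCG2 and NPY2R were lower and VGF and SYN1 higher with the combination than with vehicle, JQ1 and panobinostat, each called in its own comparison. Such a pattern was found in 7.00% of all genes, 2.43% in the upward and 4.58% in the downward direction. For VGF and SYN1 it rests on the calls that leaving out single arrays removed.

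The interaction, the combined change less the summed JQ1 and panobinostat changes, was tested to see whether the 2 effects added on the log2 scale. It was called for 2 of the 8 genes, 1 above and 1 below 0, against 0.759% of all genes (0.309% above, 0.450% below). For NPY2R the single changes summed to -3.33 and the combined change was -2.52, an interaction of 0.81 ± 0.13 (adjusted p = 0.0166). For NPTX2 the sum was 2.02 and the combined change 1.39, an interaction of -0.64 ± 0.11 (adjusted p = 0.0264). Both combined changes were thus smaller than the sum. The NPY2R call was lost without combined replicate 2 (0.796) or 3 (0.765) or JQ1 replicate 2 (0.794), and with median centring (0.824, adjusted p = 0.0527). That of NPTX2 was lost in 10 of the 12 fits without 1 array (-0.69 to -0.58 over all 12) and with median centring (-0.625, adjusted p = 0.0692).

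The other 6 genes had no interaction past the threshold, which does not show that their effects added. SYT4 had a combined change of -2.36 beside a sum of -2.44 (interaction 0.08, 95% interval -0.46 to 0.62). VGF had 1.34 beside 1.25 (0.10, interval -0.24 to 0.43). The interaction was 0.36 for SCG2 (adjusted p = 0.192), -0.28 for GCH1 (adjusted p = 0.373), -0.20 for SYN1 and 0.16 for CYB561.

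**Figure D3:**
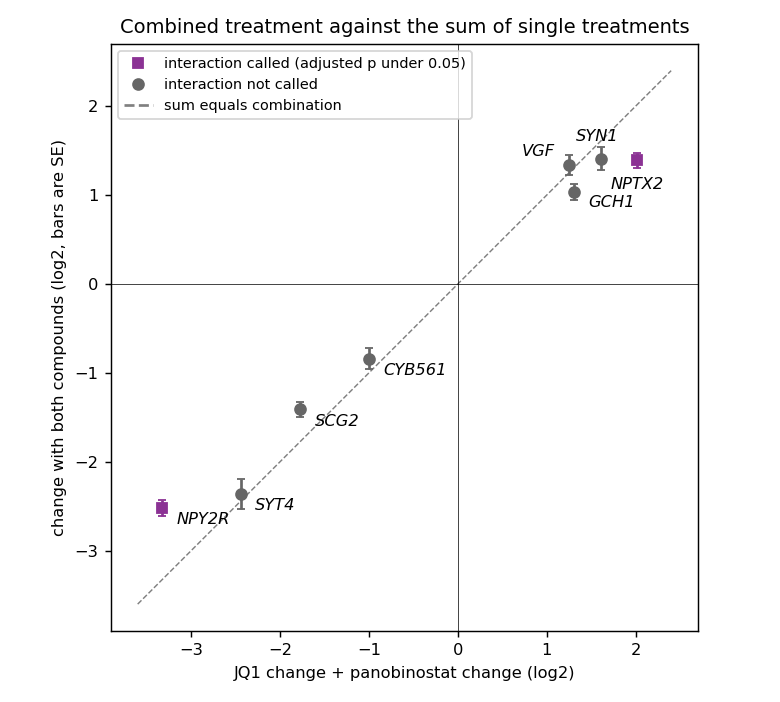
Log2 change with both compounds (vertical axis, bars are SE) against the sum of the JQ1 and panobinostat changes (horizontal axis) for the 8 genes; the dashed line marks equality. NPY2R and NPTX2, drawn as squares, lie nearer 0 than the line at -2.52 beside -3.33 and 1.39 beside 2.02.

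Genes of the same pathways were taken from lists written with earlier results of these data known, and are described by counts. Of 13 measured genes of dense-core vesicle cargo and peptide processing, SCG2 and VGF included, 4 rose and 6 fell with both compounds, 2 rose and 2 fell with panobinostat, and 2 rose and 1 fell with JQ1. Of all genes, 18.2% rose and 19.5% fell with both compounds, 14.5% and 14.8% with panobinostat, and 8.18% and 9.47% with JQ1. The list medians were -0.16, -0.07 and -0.06, beside 0.02, 0.03 and 0.01 over all genes. The other granins did not share 1 direction. SCG3, secretogranin III, rose by 0.17 with both compounds and by 0.28 with panobinostat, and CHGA, chromogranin A, fell by 0.24 with both. CHGB, chromogranin B, was at -0.41 ± 0.08 with both compounds (adjusted p = 0.00101) and at -0.13 and -0.06 with panobinostat and JQ1, neither called. CADPS, which primes dense-core vesicles for release, fell by 0.61 ± 0.13 with both and by 0.44 ± 0.13 with panobinostat. FURIN, a prohormone-cutting protease, fell by 0.59 ± 0.10 and PAM, which amidates peptides, by 0.38 ± 0.10, both with the combination. Besides VGF and SCG3, the genes that rose with both compounds were PCSK5, a prohormone convertase, at 0.36 and PCSK1N, a convertase inhibitor, at 0.30. PCSK5 was dim, above 27.7% of genes in mean signal, and its signal over background is unknown. The convertase genes PCSK1 and PCSK2 were listed but not among the genes measured. CPE, the carboxypeptidase that trims vesicle peptides, was at -0.06 with both compounds (adjusted p = 0.631).

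In the list of synaptic vesicle and exocytosis genes, 30 of 40 were measured, SYT4 and SYN1 among them. With both compounds 10 rose and 6 fell (18.2% and 19.5% of all genes), with panobinostat 7 and 6 (14.5% and 14.8%), and with JQ1 5 and 4 (8.18% and 9.47%). The list medians of 0.04, 0.06 and 0.05 were close to those of all genes. SV2C, a vesicle glycoprotein, fell by 1.29 ± 0.07 with both compounds, by 0.56 ± 0.07 with panobinostat and by 0.67 ± 0.07 with JQ1. RIMS2, an active zone protein, fell by 0.99 ± 0.07, 0.57 ± 0.07 and 0.36 ± 0.07 in the same order. VAMP1, a vesicle SNARE, rose by 0.78 ± 0.07 with both compounds, and STX1A, the membrane SNARE syntaxin 1A, by 0.71 ± 0.07. UNC13A, a priming factor, was at 0.00 with both compounds (adjusted p = 0.98).

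Catecholamine and tetrahydrobiopterin genes, of which 12 of 18 were measured, numbered 5 lower and 1 higher under both compounds (19.5% and 18.2% of all genes), 6 and 2 under panobinostat (14.8% and 14.5%), and 2 and 1 under JQ1 (9.47% and 8.18%), the rest not being called. GCH1 was the gene that rose with both compounds and with JQ1, and CYB561 was among those that fell. TH, the tyrosine hydroxylase gene, was called lower with both compounds (-0.25) and with panobinostat (-0.24), and not called with JQ1 (-0.16). The list medians were -0.10, -0.22 and -0.08. DDC, the decarboxylase that makes dopamine, fell by 0.48 ± 0.07 with both compounds, by 0.21 ± 0.07 with panobinostat and by 0.23 ± 0.07 with JQ1. DBH, which turns dopamine into noradrenaline, fell by 0.47 ± 0.07 with both and by 0.42 ± 0.07 with panobinostat. PCBD1, which helps to recycle tetrahydrobiopterin, fell by 0.46 ± 0.06 and 0.36 ± 0.06. MAOA, a catecholamine-degrading oxidase, rose by 0.63 ± 0.08 with panobinostat and was at 0.16 with both compounds (adjusted p = 0.165).

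Of 8 measured genes of the neuropeptide Y family, NPY2R was called with panobinostat (beside 29.3% of all genes) and with JQ1 (17.6%). It was joined by the NPY gene with both compounds (37.7%). NPY, the ligand, fell by 0.38 ± 0.08 with both compounds (adjusted p = 0.00336). Panobinostat alone gave -0.23 (adjusted p = 0.0648), and JQ1 alone gave -0.14 (adjusted p = 0.317). None of the NPY1R, NPY4R, NPY5R and NPY6R changes were called in these 3 comparisons, and their mean signals stood above 18.0%, 10.4%, 10.2% and 4.08% of genes, against 75.8% for NPY2R. Differences at such low signals may lie under what the array can register, since no background estimate accompanies the values.

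All 3 neuronal pentraxin genes were measured. NPTXR, the membrane-bound receptor form, moved in opposite directions with the single compounds. It fell by 0.43 ± 0.11 with panobinostat (adjusted p = 0.0109), rose by 1.10 ± 0.11 with JQ1 (adjusted p = 6.25e-05) and rose by 0.32 ± 0.11 with both (adjusted p = 0.0345). NPTX1 was at 0.38 ± 0.10 with both compounds (adjusted p = 0.0118), 0.08 with panobinostat and 0.19 with JQ1. Among 19 measured neuropeptide genes, 3 fell and 1 rose with both compounds, beside 19.5% and 18.2% of all genes. VIP, vasoactive intestinal peptide, was at -1.70 ± 0.35, -1.25 ± 0.35 and -1.38 ± 0.35 with both compounds, panobinostat and JQ1, all called. UCN, urocortin, was at 0.61 ± 0.09 with both. VIP and UCN were dim, above 31.2% and 35.9% of genes in mean signal, and their signal over background is unknown. GAL, the galanin gene and the brightest of the list, was at -0.06 with both compounds (adjusted p = 0.734).

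**Figure D4:**
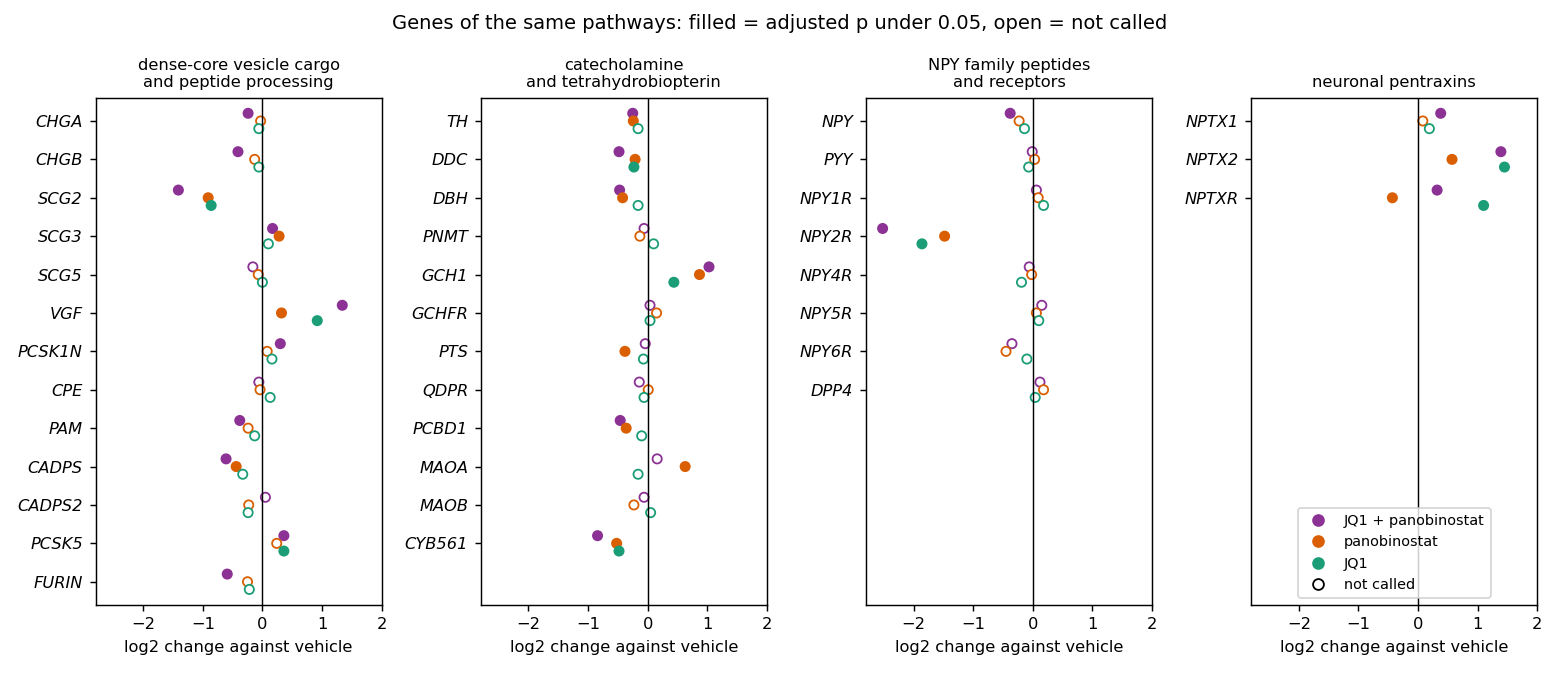
Log2 change against vehicle (horizontal axis) of every measured gene of 4 pathway lists with JQ1 plus panobinostat, panobinostat and JQ1; filled points passed an adjusted p under 0.05 and open points did not. NPY2R lies at -2.52 to -1.48 while the other receptor genes of its family are open points, and NPTXR lies on both sides of 0.

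Genes of the REST repressor complex, which silences neuronal genes outside neurons, and of the CREB pathway, whose factors bind the cAMP response element, were measured as well. REST was called higher with both compounds (0.43) and not called with panobinostat (0.05) or JQ1 (0.13). Of 8 measured genes for REST and its corepressors, 4 rose and 4 fell with both compounds, 2 rose and 3 fell with panobinostat, and 1 rose with JQ1. SIN3A, a corepressor scaffold, rose by 1.09 ± 0.08 with both compounds and by 0.82 ± 0.08 with panobinostat, and RCOR3 fell by 0.90 ± 0.09 and 0.56 ± 0.09. RCOR1 rose by 0.51 ± 0.06 with JQ1. Of 11 measured CREB pathway genes, 3 rose and 3 fell with both compounds, 3 and 5 with panobinostat, and 2 and 1 with JQ1. Beside both lists, 18.2% of all genes rose and 19.5% fell with both compounds, 14.5% and 14.8% with panobinostat, 8.18% and 9.47% with JQ1. CREBBP, the acetyltransferase that CREB recruits, fell by 1.07 ± 0.07, 0.91 ± 0.07 and 0.44 ± 0.07 with both compounds, panobinostat and JQ1. CRTC3, a CREB coactivator, fell by 1.23 ± 0.10 and 0.77 ± 0.10 with both compounds and panobinostat. In the other direction, CREB3 rose by 0.74 ± 0.09 with both compounds and by 0.42 ± 0.09 with panobinostat. CREB5 rose by 0.31 ± 0.08 and 0.61 ± 0.08 in the same order.

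The genes whose signals followed those of each of the 8 most closely were sought among 6943 protein-coding genes of at least median mean signal, by Pearson's r over the 12 arrays. Since all arrays share the 4 treatments, such an r mostly reflects the group means. NPY2R was followed by POPDC2 (r = 0.993), INTS3 (0.990) and MRPS15 (0.989). POPDC2, a popeye-domain membrane protein, changed by -2.43, -1.60 and -1.79 with both compounds, panobinostat and JQ1, close to the size of the NPY2R changes, whereas MRPS15, a mitochondrial ribosomal protein, changed by -0.45, -0.26 and -0.33. SCG2 was followed by HOXD3 (0.993), VSTM2A (0.990) and AADAT (0.989), and SYT4 by SULF2 (0.987), SYTL4 (0.987) and SCAMP5 (0.986). SYTL4 encodes a granule-docking synaptotagmin-like protein and SCAMP5 a secretory carrier membrane protein, and they changed by -0.95 and -0.33 with both compounds. SYN1 was followed by RNF41 (0.991), GCH1 by SLC60A2 (0.984), NPTX2 by ESYT2 (0.981), CYB561 by DXO (0.971) and VGF by ADCK5 (0.968). Between the 8 genes, r ran up to 0.98 for NPY2R with SCG2. Among pairs that moved the same way it was lowest, at 0.59, for NPTX2 with GCH1.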

How the data were processed

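Total RNA had been hybridised as biotin-labelled cRNA, 1 array per sample. The deposited values (53617 transcript clusters by 12 arrays) were read as log2 signal, because their range is 1.39 to 14.10. The authors' log base is not stated. MAS5 and affy are named per the submitters' processing notes, without a role. Background correction, normalization and build: not given in the sources used here. Precision is limited by the number of arrays.

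Gene symbols were available for 16098 clusters, and each symbol was represented by its brightest cluster, giving 14884 genes. Differences were fitted in R 4.3.3 with limma 3.58.1 (lmFit, eBayes; 4 group means, 12 arrays, 8 residual degrees of freedom, prior 3.457), two-sided, and tested on simulated data. An exact test of 3 against 3 arrays cannot go below p = 0.1. Other settings tried were median centring, quantile normalization, leaving out dim genes, other cluster rules, a trend in the prior, a replicate block and leaving out arrays. Members, lists and motifs were chosen with earlier results of these data known. From each of 12 lists, up to 4 called genes with the greatest change against vehicle and 1 uncalled gene could be named, and 3 like-pattern genes per member; other genes named, such as REST, the dim receptors, SCG3, CHGA, PCSK5, PCSK1N and markers, were chosen after their values were seen.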

Additional observations from a re-analysis of the deposited data

Results flagged for a closer look

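2 of the 8 genes had a JQ1 effect that differed with panobinostat present, by the interaction term, beside 0.759% of all genes. The 8 were chosen with earlier results known, so this count is no test against that share. For NPY2R the difference was 0.81 ± 0.13 (adjusted p = 0.0166): JQ1 changed it by -1.04 in cells with panobinostat and by -1.86 in cells without it. For NPTX2 the difference was -0.64 ± 0.11 (adjusted p = 0.0264): JQ1 changed it by 0.82 with panobinostat and by 1.45 without. Of the 12 fits without 1 array, the NPY2R call was lost in 3 and that of NPTX2 in 10. Both calls were lost with median centring, and that of NPY2R also with the replicate block (limma adjusted p = 0.0591).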

How the results depend on the processing

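Of 44 calls made for the 8 genes, 35 were kept under every alternative run, including 22 of the 24 against vehicle; the exceptions there were VGF with panobinostat and CYB561 with JQ1. CYB561 is below the limit of the fit without dim genes and has no value in it. Leaving out 1 array, the members called numbered 7 to 8 for JQ1, 7 to 8 for panobinostat, 8 for both compounds, 5 to 7 for both against JQ1, 5 to 6 for both against panobinostat, 4 to 5 for panobinostat against JQ1 and 0 to 2 for the interaction. Called genes then numbered 1920 to 2644, 3781 to 4399, 5046 to 5662, 3003 to 3926, 1461 to 2260 and 2633 to 3579 in the same 6 comparisons. The interaction's 113 genes called became 41 with median centring (0 members), 313 with quantile normalization, 259 without dim genes, 322 with a trend in the prior and 28 to 86 without 1 array. Same-numbered arrays did not deviate together as a rule. Deviations correlated over 0.1 in 4 of 18 same-numbered pairs (-0.69 to 0.24) and in 16 of 36 others (-0.41 to 0.49). Among arrays numbered 1, r was 0.201 for vehicle with JQ1 and 0.236 for panobinostat with both compounds. Pairs of 1 array with and 1 without panobinostat had -0.693 to -0.479. The medians of these arrays were 6.119 and 6.148 without panobinostat and 6.292 and 6.247 with it. The cause was not tested. With the replicate block, 48 genes and 1 member (NPTX2) were called for the interaction, and the CYB561 difference between both compounds and JQ1 was lost (-0.362, adjusted p = 0.0854). 1 call was gained on leaving out an array, CYB561 for both compounds against panobinostat (-0.439). Without the 2 arrays farthest from their groups, vehicle replicate 1 and panobinostat replicate 1, an alternative chosen after seeing the data, 1 member was called for the interaction. Fitting only the groups compared gave 1325 genes for both compounds against panobinostat, beside 2184. Values that changed sign were SCG2, panobinostat minus JQ1 (0.019 with quantile normalization, 0.001 without panobinostat replicate 1 and without the 2 arrays, -0.086 to 0.001 over all fits without 1 array), and the SYT4 interaction (-0.121 to -0.022 without combined replicate 2, JQ1 replicate 3 or vehicle replicate 2, -0.054 in between, -0.121 to 0.202 over all fits without 1 array). None of these was called in any fit, and the causes were not tested. Signal over background is unknown, which limits CYB561 most.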
